A study of Homo sapiens with 8 samples.

Results

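The insulin and insulin-like growth factor (IGF) system was followed through 10 genes, picked by symbol from the 56832 gene rows of the count tables. They were the ligand gene IGF2, the receptor genes IGF1R, INSR and IGF2R, the receptor substrate genes IRS1 and IRS2, and the binding protein genes IGFBP3, IGFBP4, IGFBP6 and IGFBP7. Reads of rRNA-depleted total RNA had been counted in Nthy-ORI cells, an immortalised epithelial line from normal human thyroid. All cultures were first kept without hormone for 24 h, in medium lacking phenol red with charcoal-stripped serum. They then received 10 nM T3, the active thyroid hormone, for 24 h; the NaOH vehicle for 24 h; 10 nM T3 for 6 h; or vehicle for 6 h, with 2 libraries in each group. The series concerns transcription controlled by thyroid hormone receptor beta. The line is a single cell line, and no source says whether replicate libraries derive from separate cultures. P-values therefore reflect only the spread between these libraries.

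IGF1 and IGF2 act through the IGF1 receptor, a tyrosine kinase, and insulin acts through the closely related insulin receptor. Both kinases pass the signal on by phosphorylating the IRS adaptor proteins, which recruit phosphoinositide 3-kinase. The IGF2 receptor carries no kinase and takes IGF2 up for breakdown, while the secreted binding proteins hold IGFs outside the cell. In thyroid follicular cells, insulin and IGFs are known to act together with thyrotropin on growth.

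The libraries held 2517983 to 8201606 reads in genes. Libraries of different times resembled each other less (r = 0.714 to 0.796 for log2 CPM across genes, where CPM is the count scaled to a common library size, with TMM factors) than T3 and vehicle libraries of one time (r = 0.964 to 0.976). KLF9 and HR, established T3 targets, were higher with T3 at 6 h (log2 fold changes 3.95, SE 0.50, and 0.77, SE 0.17; edgeR adjusted p = 0.000198 and 0.012), the HR call being lost when any library of 6 h was left out (edgeR adjusted p up to 0.188). Both were lower in the libraries labelled T3 at 24 h (-3.08, SE 0.31, and -4.19, SE 0.51; edgeR adjusted p = 6.68e-05 and 0.000278). Whether the labels are exchanged at 24 h was not tested. Every 24 h result below refers to the libraries as labelled: exchanged labels would turn the sign of each T3 difference at 24 h, and would change which libraries enter each contrast between times and the difference of response. The thyroid gene PAX8 averaged 112 CPM in the libraries labelled T3 and 134 CPM in those labelled vehicle at 24 h, but 4.17 CPM with T3 and 11.7 CPM with vehicle at 6 h. Transcripts of TG and TSHR, which help define differentiated thyroid cells, stood at or under 0.576 CPM in every library. KRT8 and KRT18, keratin genes of simple epithelia, were present at 95.9 CPM or more in all 8 libraries, but all 3 epithelial markers tested of 4 were lower at 24 h than at 6 h in both treatments (KRT18 -1.32, SE 0.13, and -1.04, SE 0.14; edgeR adjusted p = 1.46e-07 with T3 and 3.79e-06 with vehicle). Library quality also moved with the groups. Reads in genes were 22.8% and 24.4% of all counted in the libraries labelled T3 at 24 h, 19.5% and 21.7% with vehicle at 24 h, 16.5% and 17.1% with T3 at 6 h and 12.9% and 15.4% with vehicle at 6 h. Reads not aligned uniquely were 47.6% and 50% in the libraries labelled T3 at 24 h, 57.1% and 56.3% with vehicle at 24 h and 61.2% to 67.4% at 6 h. On counts scaled by library total only, the replicates labelled vehicle at 24 h differed most from each other. Their chi-square per degree of freedom was 27.8, against 2.69 to 7.24 in the other groups. On log2 CPM the lowest correlation was instead within the libraries labelled T3 at 24 h (r = 0.977). It was 0.982 within vehicle at 24 h, 0.99 within T3 at 6 h and 0.983 within vehicle at 6 h. The part of these differences in the results below was not tested. Time cannot be told apart from any other difference between the cultures harvested at 6 h and at 24 h.

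IGF2, which encodes the fetal growth factor of the family, was listed at 0 counts in all 8 libraries, and it was the 1 member of 10 that the filter on low counts removed. A count of 0 allows up to 3 counts, or 0.346 to 1.22 CPM by library. This row has a limit of its own. In the GENCODE 29 annotation of GRCh38, IGF2 lies on chromosome 11 (2129112 to 2149603, minus strand). There 73.7% of its exon bases also belong to a second record of the same symbol and 20.9% to the read-through gene INS-IGF2, itself listed at 0. These shares overlap and cannot be added. In that annotation 5235 of the 6979 exon bases of IGF2 are shared with any other record, and the rest with none. The counting mode is not given in the sources used here, so reads set aside as belonging to more than 1 gene may be missing from this row. H19, the non-coding gene imprinted together with IGF2, was far from silent at 6 h, with 70.3 and 89.4 CPM with T3 and 109.9 and 109.6 CPM with vehicle. The other ligand genes on the pathway list, INS and IGF1, were also listed at 0 in every library.

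Between genes, levels were compared as CPM per kilobase of exon, since a longer transcript collects more reads. With this measure the order of the 9 detected genes differed between the 2 times. In the libraries labelled T3 at 24 h, IGFBP4 led with 30.4 ± 0.399 CPM per kb (SD, n = 2), followed by IGF2R with 16.9 ± 0.158 and IRS2 with 16.4 ± 0.453. The libraries labelled vehicle at 24 h had the same leading genes, IGFBP4 with 57.2 ± 0.336 CPM per kb, IGF2R with 18.8 ± 1.62 and IRS2 with 10.5 and 14.4 in its 2 libraries. At 6 h IGFBP7 led instead, with 53.7 ± 1.15 CPM per kb under T3 and 51.8 ± 9.92 under vehicle. IGF1R, IGFBP4 and IRS2 came next under T3 at 6 h, at 16.3, 15.6 and 15.4 CPM per kb, and neighbours in that order overlapped between libraries. IRS1 and IGFBP6 had the lowest means of the detected genes in each group, although IGFBP6 overlapped IGFBP3 with vehicle at 6 h. IRS1 lay between 1.40 and 3.70 CPM per kb as a group mean and IGFBP6 between 1.00 and 4.05.

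**Figure D1:**
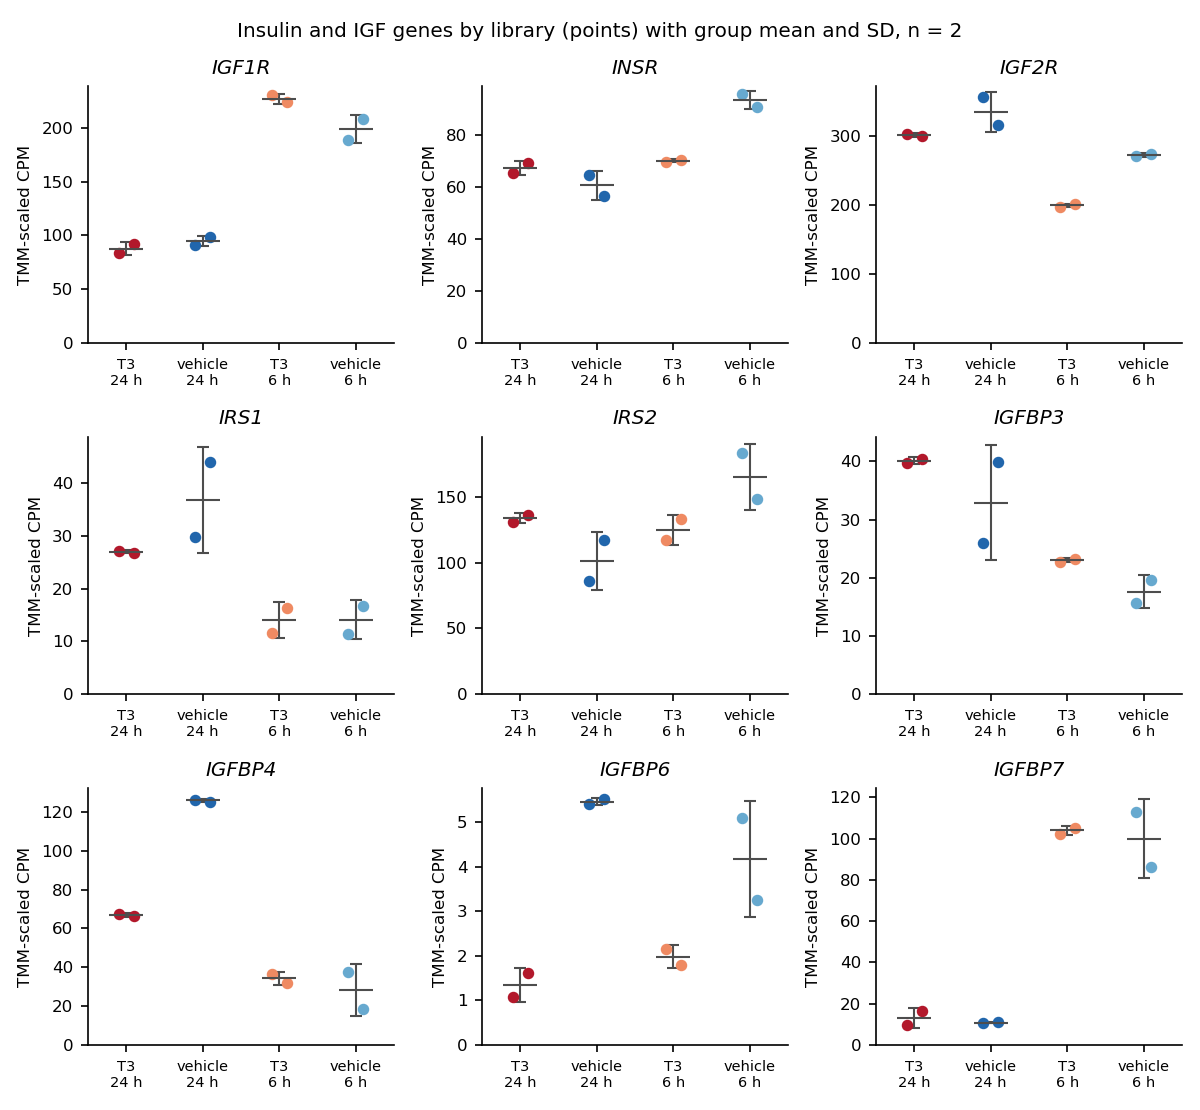
TMM-scaled CPM (vertical axes, each from 0) of the 9 detected genes in the 4 groups, with 1 point per library and the mean and SD of the 2 libraries. IGFBP7 and IGF1R stand higher in the 6 h libraries, and IGFBP4 stands highest in those labelled vehicle at 24 h. Both IGFBP6 points labelled T3 lie below both labelled vehicle at each time. That IGFBP6 difference passed at 24 h only, and not in every setting tried.

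Among the receptor genes, IGF1R on chromosome 15 (98648539 to 98964530, plus strand) encodes the receptor that IGF1 and IGF2 signal through. It had 83.4 and 92.1 CPM in the libraries labelled T3 at 24 h, 91.6 and 98.3 CPM with vehicle at 24 h, 230.4 and 224 CPM with T3 at 6 h, and 189 and 208 CPM with vehicle at 6 h. Every 24 h library lay below every 6 h library. IGF1R was lower at 24 h than at 6 h, with log2 fold changes of -1.37 in the T3 libraries (SE 0.12, edgeR adjusted p = 2.82e-08) and -1.06 in the vehicle libraries (SE 0.12, edgeR adjusted p = 1.14e-06). Both calls held whichever library was left out and in each other setting tried. With T3 at 6 h the 2 libraries stood above the 2 vehicle libraries, with a log2 fold change of 0.19 that missed the threshold (SE 0.12, edgeR adjusted p = 0.372), and at 24 h it was -0.11 (SE 0.12, edgeR adjusted p = 0.585).

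INSR, the insulin receptor gene on chromosome 19 (7112255 to 7294034, minus strand), moved less. It had 65.5 and 69.3 CPM in the libraries labelled T3 at 24 h, 64.6 and 56.6 CPM with vehicle at 24 h, 69.6 and 70.5 CPM with T3 at 6 h, and 95.8 and 90.9 CPM with vehicle at 6 h. The vehicle libraries of 6 h were the highest, and the other 6 libraries lay within 56.6 to 70.5 CPM. INSR was lower at 24 h than at 6 h in the vehicle libraries (log2 fold change -0.63, SE 0.14, edgeR adjusted p = 0.000929), and this was called whichever library was left out. The same contrast in the T3 libraries gave -0.06 (SE 0.14, edgeR adjusted p = 0.734), and passed with GC content and length removed (-0.30, edgeR adjusted p = 0.0495). At 6 h the T3 libraries lay below the vehicle libraries without overlap, with a log2 fold change of -0.41 that did not pass (SE 0.14, edgeR adjusted p = 0.0891), but did with only the 4 libraries compared (-0.39, edgeR adjusted p = 0.0203). The level of IGF1R relative to that of INSR, per length, was 0.955 and 0.996 in the libraries labelled T3 at 24 h and 1.06 and 1.30 with vehicle at 24 h, but 2.48 and 2.38 with T3 and 1.48 and 1.71 with vehicle at 6 h. The groups did not overlap in this ratio, and with 2 libraries in each it was not tested.

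IGF2R, on chromosome 6 (159969099 to 160113507, plus strand), encodes the mannose 6-phosphate receptor that sorts lysosomal enzymes and clears IGF2. It had 304 and 300.2 CPM in the libraries labelled T3 at 24 h, 357 and 316 CPM with vehicle at 24 h, 198 and 202 CPM with T3 at 6 h, and 271 and 275 CPM with vehicle at 6 h. The T3 libraries of 6 h were the lowest of the 8. IGF2R fell with T3 at 6 h, to a mean of 0.732 times the vehicle level (log2 fold change -0.45, SE 0.12, edgeR adjusted p = 0.0263), and was the 1 member of 9 tested that passed in this comparison. Over all genes tested, 7.64% passed at 6 h, 3.86% as lower and 3.78% as higher. The call was lost without any 1 of the 4 libraries of 6 h (edgeR adjusted p = 0.0977 to 0.241), without the filter on low counts (edgeR adjusted p = 0.0707) and with GC content and length removed (edgeR adjusted p = 0.0623), while the log2 fold change stayed between -0.46 and -0.37. At 24 h against 6 h IGF2R was higher in the T3 libraries (0.60, SE 0.11, edgeR adjusted p = 0.000164; 0.24 and edgeR adjusted p = 0.046 with GC content and length removed). In the vehicle libraries the difference was smaller (0.30, SE 0.11, edgeR adjusted p = 0.0287). That call was lost without either vehicle library of 6 h, either T3 library of 6 h or vehicle replicate 1 of 24 h. It was also lost with only the 4 libraries compared (0.30, edgeR adjusted p = 0.105), and the value was -0.02 with GC content and length removed.

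The IRS proteins link both kinase receptors to phosphoinositide 3-kinase. IRS1, on chromosome 2 (226731317 to 226799759, minus strand), had 27.2 and 26.8 CPM in the libraries labelled T3 at 24 h, 29.7 and 43.9 CPM with vehicle at 24 h, 11.5 and 16.4 CPM with T3 at 6 h, and 11.4 and 16.7 CPM with vehicle at 6 h. Every 24 h library exceeded every 6 h library, whereas the T3 and vehicle libraries of 6 h overlapped. IRS1 was higher at 24 h than at 6 h in the T3 libraries (log2 fold change 0.91, SE 0.25, edgeR adjusted p = 0.00412; edgeR adjusted p = 0.0592 without T3 replicate 1 of 6 h) and in the vehicle libraries (1.42, SE 0.27, edgeR adjusted p = 0.000171). Between T3 and vehicle it gave -0.46 at 24 h (SE 0.23, edgeR adjusted p = 0.188) and 0.05 at 6 h (SE 0.30, edgeR adjusted p = 0.941).

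IRS2, on chromosome 13 (109752698 to 109786568, minus strand), is in several tissues the substrate whose gene responds to fasting through FOXO factors. It had 131 and 136 CPM in the libraries labelled T3 at 24 h, 85.8 and 117 CPM with vehicle at 24 h, 117 and 133 CPM with T3 at 6 h, and 183 and 148 CPM with vehicle at 6 h. T3 libraries lay above vehicle libraries at 24 h and below them at 6 h, without overlap at either time. Neither difference passed over all genes: the log2 fold change was 0.39 at 24 h (SE 0.15, edgeR adjusted p = 0.0951) and -0.40 at 6 h (SE 0.16, edgeR adjusted p = 0.133). The 6 h value passed with only the 4 libraries compared (-0.38, edgeR adjusted p = 0.0152). The 24 h value passed without vehicle replicate 2 of 24 h (0.64, edgeR adjusted p = 0.0172) and with GC content and length removed (0.78, edgeR adjusted p = 0.00981). In the vehicle libraries IRS2 was lower at 24 h than at 6 h (-0.70, SE 0.16, edgeR adjusted p = 0.00078), a call lost with GC content and length removed (-0.21, edgeR adjusted p = 0.198). In the T3 libraries the same contrast gave 0.09 (SE 0.15, edgeR adjusted p = 0.618), and passed as higher with GC content and length removed (0.72, edgeR adjusted p = 0.000223). IRS2 outnumbered IRS1 per length in each library, by 5.89 and 6.20 times in those labelled T3 at 24 h, 3.53 and 3.25 times with vehicle at 24 h, 12.4 and 9.93 times with T3 at 6 h, and 19.6 and 10.8 times with vehicle at 6 h.

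Of the 9 members tested, 2 passed between the libraries labelled T3 and vehicle at 24 h, both binding protein genes and both lower, against 13.3% of all genes tested in either direction, 7.76% as lower and 5.58% as higher. IGFBP4, on chromosome 17 (40443461 to 40457731, plus strand), encodes a binding protein that mostly restrains IGF action until the protease PAPPA cleaves it. It had 67.5 and 66.2 CPM in the libraries labelled T3 at 24 h, 126 and 125 CPM with vehicle at 24 h, 36.8 and 31.9 CPM with T3 at 6 h, and 37.8 and 18.7 CPM with vehicle at 6 h. The 4 libraries of 24 h fell into 2 tight pairs, while the vehicle libraries of 6 h lay on both sides of the T3 libraries. IGFBP4 was lower in the libraries labelled T3 at 24 h (log2 fold change -0.91, SE 0.19, edgeR adjusted p = 0.0058), at 0.532 times the level in those labelled vehicle. The call held whichever library was left out (log2 fold change -0.92 to -0.90) but not with GC content and length removed (-0.40, edgeR adjusted p = 0.241). The GC content of its longest transcript was 62.5%, against a median of 48.0% over the tested genes. At 6 h the log2 fold change was 0.23 (SE 0.23, edgeR adjusted p = 0.611).

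IGFBP6, on chromosome 12 (53097436 to 53102345, plus strand), encodes the binding protein with a marked preference for IGF2. Its counts were few: 7 and 14 reads in the libraries labelled T3 at 24 h, 24 and 37 with vehicle at 24 h, 6 and 9 with T3 at 6 h, and 17 and 8 with vehicle at 6 h. As CPM these were 1.08 and 1.61 in the libraries labelled T3 at 24 h against 5.40 and 5.51 in those labelled vehicle, and 2.16 and 1.80 with T3 against 5.10 and 3.26 with vehicle at 6 h. At each time both T3 libraries lay below both vehicle libraries. IGFBP6 was lower in the libraries labelled T3 at 24 h (log2 fold change -1.98, SE 0.52, edgeR adjusted p = 0.0196). The call was lost without either vehicle library of 24 h (edgeR adjusted p = 0.0607 and 0.0868), with only the 4 libraries compared (edgeR adjusted p = 0.0657), in DESeq2 (DESeq2 adjusted p = 0.0568) and with GC content and length removed (-1.44, edgeR adjusted p = 0.168). The GC content of its longest transcript was 64.1%. At 6 h its log2 fold change of -1.11 did not pass (SE 0.59, edgeR adjusted p = 0.278).

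Of the 7 fibroblast markers on the fixed list 3 could be tested, and 1 of them passed as lower with T3 as labelled at each time. The summed level of the 7, most of it COL1A1, was 627 to 723 CPM in the libraries labelled T3 at 24 h and 1145 to 1249 CPM in those labelled vehicle. At 6 h the sum was 114 to 119.6 CPM with T3 and 214 CPM in both vehicle libraries. COL3A1, DCN and LUM, which define fibroblasts, were at 0 counts in both 24 h groups, and COL1A2 and PDGFRA in both 6 h groups. The 5 endothelial markers summed to at most 1.27 CPM in any library. The part of other cell types in the IGFBP4 and IGFBP6 differences was not tested, and in bulk RNA fewer cells of a type and less RNA per cell cannot be told apart.

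The promoters of IGFBP4 and IGFBP6 are shown because these were the members that were lower together in the libraries labelled T3 at 24 h. Each is the 250 bases before the gene start in RefSeq on GRCh38.p14, plus strand, 5′ to 3′, at chr17:40443200-40443449 for IGFBP4 and chr12:53097417-53097666 for IGFBP6. Capitals mark a TATAAA match in IGFBP4, beginning 29 bases before the start, and a GTAAACA match, the core bound by FOXO factors, in IGFBP6, beginning 186 bases before it.
IGFBP4: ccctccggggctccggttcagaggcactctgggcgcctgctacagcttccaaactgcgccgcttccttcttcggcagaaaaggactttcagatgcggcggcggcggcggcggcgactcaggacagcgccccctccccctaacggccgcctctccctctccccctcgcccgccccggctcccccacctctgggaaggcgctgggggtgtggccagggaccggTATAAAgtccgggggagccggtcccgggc
IGFBP6: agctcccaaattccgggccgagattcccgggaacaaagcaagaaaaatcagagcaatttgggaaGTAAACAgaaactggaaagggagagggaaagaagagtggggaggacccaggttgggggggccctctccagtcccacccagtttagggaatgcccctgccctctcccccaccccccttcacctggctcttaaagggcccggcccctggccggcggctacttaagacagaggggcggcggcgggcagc
These letters were searched on both strands. TATAAA occurred in 10.7% and GTAAACA in 2.98% of 35116 promoter windows of this length. The thyroid hormone receptor half-site AGGTCA, present in 12.1% of windows, was in neither, nor in the windows of the other 6 members with a RefSeq promoter in the table, IGF1R, INSR, IGF2R, IRS1, IRS2 and IGFBP3. A match describes the letters only. The RefSeq start of IGFBP6 lies downstream of the GENCODE 29 start, so most of its window falls inside the GENCODE gene span. The 2 windows differed in base composition, with 24 CpG dinucleotides and 71.6% GC for IGFBP4 against 9 and 61.2% for IGFBP6.

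IGFBP3, on chromosome 7 (45912245 to 45921874, minus strand), encodes the main carrier of IGFs in blood and differed between times. It had 39.7 and 40.5 CPM in the libraries labelled T3 at 24 h, 25.9 and 39.9 CPM with vehicle at 24 h, 22.7 and 23.2 CPM with T3 at 6 h, and 15.6 and 19.6 CPM with vehicle at 6 h. T3 libraries lay above vehicle libraries at 6 h, and the 2 groups overlapped at 24 h. IGFBP3 was higher at 24 h than at 6 h in the T3 libraries (log2 fold change 0.80, SE 0.22, edgeR adjusted p = 0.00326) and in the vehicle libraries (0.93, SE 0.24, edgeR adjusted p = 0.00242). The vehicle call was lost without vehicle replicate 1 of 6 h (edgeR adjusted p = 0.0552) or vehicle replicate 2 of 24 h (edgeR adjusted p = 0.0632, log2 fold change 0.57). Between T3 and vehicle the log2 fold change was 0.27 at 24 h (SE 0.20, edgeR adjusted p = 0.402) and 0.40 at 6 h (SE 0.25, edgeR adjusted p = 0.372).

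IGFBP7, on chromosome 4 (57030773 to 57110385, minus strand), encodes a secreted relative that binds IGFs weakly and is abundant in vascular basement membranes. It had 9.88 and 16.7 CPM in the libraries labelled T3 at 24 h, 10.6 and 11.0 CPM with vehicle at 24 h, 102 and 105 CPM with T3 at 6 h, and 113 and 86.4 CPM with vehicle at 6 h. The 6 h libraries stood above all 24 h libraries by several times, and T3 and vehicle overlapped at both times. IGFBP7 was lower at 24 h, with log2 fold changes of -2.94 in the T3 libraries (SE 0.21, edgeR adjusted p = 1.8e-09) and -3.21 in the vehicle libraries (SE 0.23, edgeR adjusted p = 2.6e-09), the widest differences among the members in both. Both calls held in every leave-out and every other setting tried, but the rank did not. With GC content and length removed IGFBP7 gave -2.37 in the T3 libraries and -2.78 in the vehicle libraries. IGFBP4 was then wider, at 2.43 and 3.28. Between T3 and vehicle it gave 0.32 at 24 h (SE 0.24, edgeR adjusted p = 0.412) and 0.05 at 6 h (SE 0.19, edgeR adjusted p = 0.918). In GENCODE 29, 18.9% of its exon bases overlap genes on the other strand, mostly POLR2B, and the strand setting of the counting is not given in the sources used here.

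IGFBP4 went against IGFBP7 between the times. It was higher at 24 h than at 6 h in the T3 libraries (log2 fold change 0.97, SE 0.21, edgeR adjusted p = 0.000476) and in the vehicle libraries (2.11, SE 0.21, edgeR adjusted p = 2.88e-07). The vehicle value ran from 1.72 to 2.74 over the leave-outs, the largest without vehicle replicate 1 of 6 h. With GC content and length removed the values were 2.43 in the T3 libraries and 3.28 in the vehicle libraries. IGFBP6 gave -0.51 in the T3 libraries (SE 0.60, edgeR adjusted p = 0.462) and 0.36 in the vehicle libraries (SE 0.51, edgeR adjusted p = 0.553). With GC content and length removed the IGFBP6 values were 1.30 (edgeR adjusted p = 0.0595) and 1.86 (edgeR adjusted p = 0.00355). Of the summed CPM per kb of the 4 binding protein genes, IGFBP4 made up 67.7% and 61.7% in the libraries labelled T3 at 24 h, 79.1% and 75.4% with vehicle at 24 h, 21.9% and 19.2% with T3 at 6 h, and 20.7% and 14.2% with vehicle at 6 h. IGFBP7 made up 11.3% and 17.7% in the libraries labelled T3 at 24 h, 7.55% and 7.57% with vehicle at 24 h, 69.4% and 72.3% with T3 at 6 h, and 70.7% and 74.6% with vehicle at 6 h. The leading binding protein transcript thus differed between times in all 8 libraries. The sum itself was lower in the libraries labelled T3 at 24 h, at 45.3 and 48.8 CPM per kb, than in those labelled vehicle at 24 h, at 72.5 and 75.4, while at 6 h the T3 libraries, at 76.2 and 75.4, lay within the vehicle libraries, at 83.2 and 60.0.

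**Figure D2:**
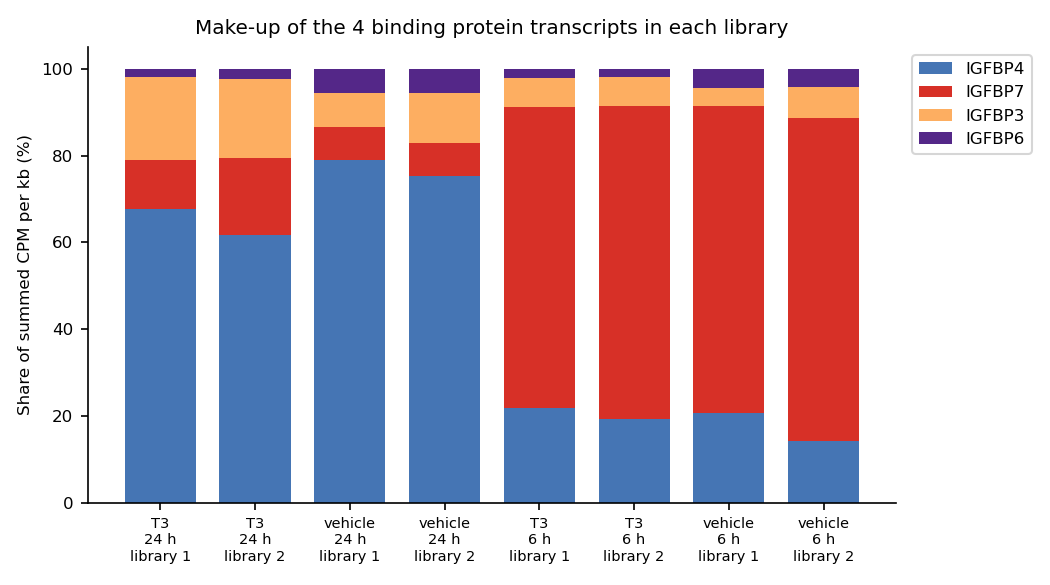
Share of each binding protein transcript in the summed CPM per kb of the 4 genes (vertical axis, percent), 1 bar per library. IGFBP4 fills most of each 24 h bar and IGFBP7 most of each 6 h bar.

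Over the members tested, 6 of 9 passed at 24 h against 6 h in the T3 libraries (4 higher, 2 lower; median log2 fold change 0.09) and 8 of 9 in the vehicle libraries (4 higher, 4 lower; median 0.30). Of all genes tested, 70.4% passed in the T3 libraries (35.1% higher, 35.2% lower) and 64.5% in the vehicle libraries (31.9% higher, 32.6% lower), with medians of 0.02 and 0.03, so a call in these contrasts was the common outcome. The contrasts between times and those between treatments share libraries. None of the 9 passed as higher with T3 at 6 h in edgeR (0 at an unadjusted p under 0.05, 0 in DESeq2), and none at 24 h in edgeR (1 at an unadjusted p under 0.05, 0 in DESeq2). The median log2 fold change of the members, T3 over vehicle as labelled, was -0.11 at 24 h, against -0.01 over all genes, and 0.05 at 6 h, against -0.02 over all genes.

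The T3 response was also compared between times, as the log2 fold change at 24 h less that at 6 h. None of the 9 members passed in edgeR, where 1.84% of all genes did, 0.849% as higher and 0.992% as lower (3 members at an unadjusted p under 0.05, 0 in DESeq2). The 3 were IGFBP4 (-1.14, SE 0.30, edgeR adjusted p = 0.0615), IRS2 (0.79, SE 0.22, edgeR adjusted p = 0.0718) and INSR (0.57, SE 0.20, edgeR adjusted p = 0.151). IGFBP4 passed with the replicate number as a block within time (edgeR adjusted p = 0.0209) and over all libraries (edgeR adjusted p = 0.0348). It also passed without the filter on low counts (edgeR adjusted p = 0.000279), and without vehicle replicate 1 of 6 h (-1.77) or of 24 h (-1.13). Its value ran from -1.77 to -0.79 over the leave-outs. With GC content and length removed it was -0.85 and did not pass (edgeR adjusted p = 0.101). IRS2 passed without the filter on low counts (edgeR adjusted p = 0.0339) and with GC content and length removed (edgeR adjusted p = 0.0182). It also passed without vehicle replicate 2 of 24 h, and its value ran from 0.59 to 1.04 over the leave-outs.

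**Figure D3:**
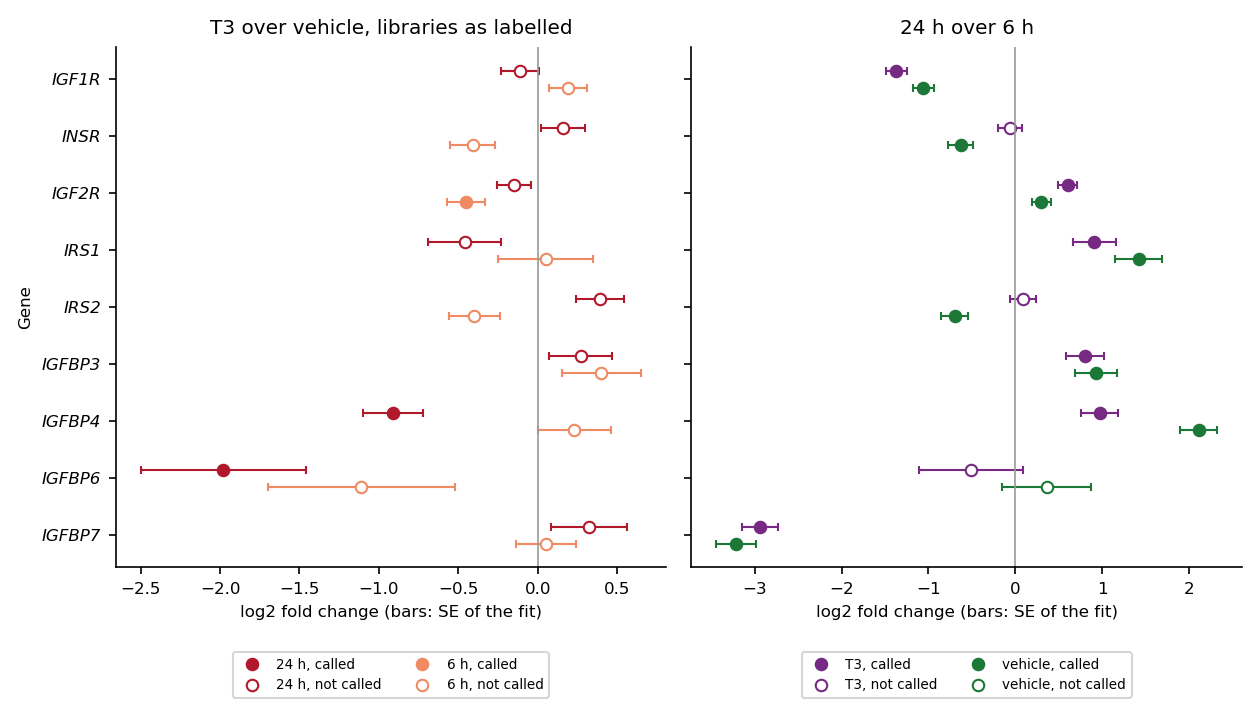
Log2 fold changes (horizontal axes) of the 9 tested members, T3 over vehicle as labelled on the left and 24 h over 6 h on the right, with bars for the SE of the fit and filled points for an edgeR adjusted p under 0.05. On the left IGF2R is filled at 6 h and IGFBP4 and IGFBP6 at 24 h, and on the right IGFBP7 lies farthest from 0.

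A further 34 genes of the insulin and IGF pathway were examined, of which 24 passed the filter on low counts. The 10 that did not were INS, IGF1, INSRR, IRS4, IGFALS, IGFBP1, IGFBP2, IGFBP5, PAPPA2 and SOCS1. IGFBP2 reached 1.58 and 2.08 CPM with vehicle at 24 h, and IGFBP5 1.54 and 2.88 CPM in those labelled T3 at 24 h. With T3 at 6 h, 4 of the 24 fell and 1 rose, against 7.64% of all genes tested, and the list median was -0.14 against -0.02 over all genes. At 24 h 2 were lower and none higher in edgeR in the libraries labelled T3 (2 higher at an unadjusted p under 0.05, 0 in DESeq2), against 13.3% of all genes. In DESeq2 1 was lower.

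STC2, which encodes stanniocalcin 2, an inhibitor of the protease PAPPA that frees IGFs from IGFBP4, fell with T3 at 6 h. It had 89.8 and 89.8 CPM with T3 against 194 and 201 CPM with vehicle at 6 h, which is -1.14 on the log2 scale (SE 0.14, edgeR adjusted p = 0.000115). The call held in every leave-out and every other setting tried. In the libraries labelled T3 at 24 h it stood at 372 and 394 CPM, inside the range of 362 and 464 CPM of those labelled vehicle (-0.11, SE 0.12, edgeR adjusted p = 0.60). GRB10, which encodes an adaptor that restrains both kinase receptors, fell to 44.0 and 42.3 CPM with T3, against 74.5 and 100.3 CPM with vehicle at 6 h (-1.01, SE 0.17, edgeR adjusted p = 0.00298; 0.0644 without T3 replicate 2 of 6 h). At 24 h GRB10 had 89.7 and 111 CPM in the libraries labelled T3 and 96.3 and 85.9 CPM in those labelled vehicle. STC2 and GRB10 were the 2 genes of the list whose T3 response differed between times, by 1.03 (SE 0.18, edgeR adjusted p = 0.00629) and 1.15 (SE 0.23, edgeR adjusted p = 0.0167). Both of these calls were lost without T3 replicate 1, T3 replicate 2 or vehicle replicate 2 of 6 h (edgeR adjusted p up to 0.0884 for STC2 and 0.157 for GRB10).

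The other genes that passed with T3 at 6 h did so less firmly. SOCS3, a feedback inhibitor of cytokine receptors that also binds the insulin receptor, had 26.3 and 21.8 CPM with T3 against 48.6 and 48.9 CPM with vehicle at 6 h (log2 fold change -1.03, SE 0.25, edgeR adjusted p = 0.0182). Leaving out any library of 6 h ended its call (edgeR adjusted p up to 0.228), as did removing GC content and length (-0.84, edgeR adjusted p = 0.0672). IGF2BP2, which encodes an RNA-binding protein named for its binding to IGF2 mRNA, had 9.01 and 13.6 CPM with T3 against 25.2 and 26.5 CPM with vehicle (-1.13, SE 0.23, edgeR adjusted p = 0.00765). That call was lost without either vehicle library or T3 replicate 1 of 6 h (edgeR adjusted p up to 0.106). IDE, the insulin-degrading protease gene, had 107 and 119.6 CPM with T3 against 68.2 and 92.1 CPM with vehicle at 6 h (0.52, SE 0.15, edgeR adjusted p = 0.0488), and lost its call when vehicle replicate 1 or either T3 library of 6 h was left out (edgeR adjusted p up to 0.49), in DESeq2 (DESeq2 adjusted p = 0.064) and with GC content and length removed (0.23, edgeR adjusted p = 0.387).

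At 24 h the 2 genes that passed as lower were FURIN and SH2B1. FURIN, which encodes a protease that cleaves the insulin and IGF1 receptor precursors, had 21.9 and 16.8 CPM in the libraries labelled T3 and 28.4 and 33.6 CPM in those labelled vehicle (log2 fold change -0.70, SE 0.18, edgeR adjusted p = 0.0211). SH2B1, an adaptor of the insulin receptor, had 30.7 and 41.9 CPM in the libraries labelled T3 and 46.6 and 58.7 CPM in those labelled vehicle (-0.53, SE 0.17, edgeR adjusted p = 0.0466). The FURIN call was lost when replicate 2 of either 24 h group was left out (edgeR adjusted p up to 0.124), and the SH2B1 call in 6 of 8 leave-outs, the exceptions being vehicle replicate 1 and T3 replicate 2 of 24 h. With GC content and length removed neither passed (FURIN -0.21, edgeR adjusted p = 0.60, and SH2B1 -0.09, edgeR adjusted p = 0.858). Neither passed with only the 4 libraries compared, and SH2B1 also did not pass in DESeq2.

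**Figure D4:**
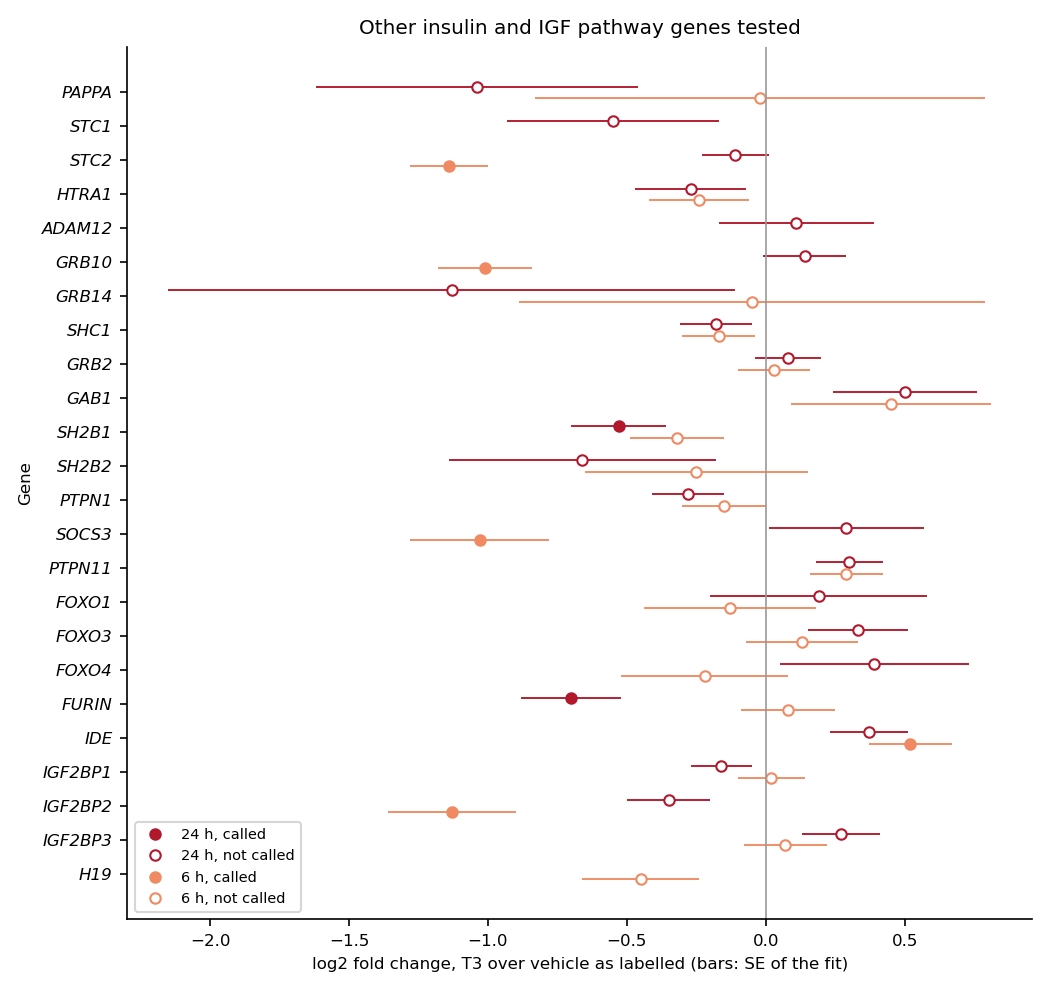
Log2 fold changes of the other pathway genes tested (horizontal axis, T3 over vehicle as labelled, with bars for the SE of the fit) at 24 h and at 6 h, with filled points for an edgeR adjusted p under 0.05. STC1 and ADAM12 at 6 h and H19 at 24 h are left out because a group held 5 counts or fewer. STC2, GRB10, SOCS3 and IGF2BP2 are filled on the left of 0 at 6 h, and FURIN and SH2B1 at 24 h.

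Between times, 19 of the 24 genes passed in the T3 libraries (9 higher and 10 lower at 24 h) and 18 in the vehicle libraries (9 and 9), against 70.4% and 64.5% of all genes tested. Of the 6 listed proteases of binding proteins and their inhibitors, 5 were tested, and in each treatment STC1, STC2 and ADAM12 were higher at 24 h, HTRA1 was lower and PAPPA did not pass. HTRA1, which encodes a secreted serine protease, had 13.6 and 11.6 CPM in the libraries labelled T3 at 24 h against 50.1 and 49.7 CPM with T3 at 6 h (log2 fold change -1.99, SE 0.19, edgeR adjusted p = 4.88e-08). In vehicle libraries it had 14.4 and 15.8 CPM at 24 h against 58.5 and 59.1 CPM at 6 h (-1.95, SE 0.19, edgeR adjusted p = 1.22e-07). STC1, which encodes stanniocalcin 1, another PAPPA inhibitor, had 6.48 and 6.91 CPM in the libraries labelled T3 at 24 h against 0.361 and 0.401 CPM with T3 at 6 h, where it had 3 counts in all, so the later level was 17.4 times the earlier one (counting interval 5.79 to 85.9). In vehicle libraries it had 7.88 and 11.6 CPM at 24 h and no counts at 6 h, at least 19.5-fold higher against a floor of 3 counts over the group. ADAM12, a protease gene whose product cleaves IGFBP3, had 299 counts in the libraries labelled T3 at 24 h against 2 with T3 at 6 h, a ratio of 76.6 (counting interval 21.0 to 635), and its log2 fold change in the vehicle libraries was 4.68 (SE 0.52, edgeR adjusted p = 6.38e-07). IGF2BP2 was higher at 24 h by 3.49 on the log2 scale in the T3 libraries (SE 0.19, edgeR adjusted p = 6.92e-11) and by 2.71 in the vehicle libraries (SE 0.18, edgeR adjusted p = 1.14e-09).

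H19 was the farthest of the list in the other direction. It held 4 and 0 counts in the libraries labelled T3 at 24 h and 1 and 0 in those labelled vehicle at 24 h, against 195 and 446 with T3 and 366 and 269 with vehicle at 6 h. The level at 6 h was 313 times that at 24 h in the T3 libraries (counting interval 122 to 1152) and 1225 times in the vehicle libraries (counting interval 219 to 48462). FOXO1, a transcription factor that insulin signalling keeps out of the nucleus, had 16.2 and 5.87 CPM in the libraries labelled T3 at 24 h against 62.4 and 67.7 CPM with T3 at 6 h, and 6.98 and 11.3 CPM with vehicle at 24 h against 71.5 and 70.9 CPM at 6 h. Its log2 fold change at 24 h against 6 h was -2.61 in the T3 libraries (SE 0.34, edgeR adjusted p = 2.46e-05) and -2.92 in the vehicle libraries (SE 0.36, edgeR adjusted p = 1.92e-05). SOCS3 was lower at 24 h in the vehicle libraries (-2.61, SE 0.27, edgeR adjusted p = 2.27e-07) and in the T3 libraries (-1.28, SE 0.26, edgeR adjusted p = 0.000287). Only the call in the T3 libraries was lost with GC content and length removed (-0.19, edgeR adjusted p = 0.516). GRB14, an inhibitor of the insulin receptor kinase, was lower in the T3 libraries (-2.62, SE 0.94, edgeR adjusted p = 0.0194), a call on 7 and 0 against 9 and 15 counts that was lost without either T3 library of 6 h or T3 replicate 2 of 24 h (edgeR adjusted p up to 0.0739).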

How the data were processed

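The authors deposited an unnormalised read count for each gene symbol, in a table of its own for every library. CASAVA 1.7, STAR 2.7, HTSeq, DESeq2 and build hg38 are named per the submitters' processing notes. Counting mode, strand setting and annotation release: not given in the sources used here. The 5 summary rows were left out of library sizes and tests.

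The test was the robust quasi-likelihood F test of edgeR 4.0.16 (R 4.3.3), with TMM scaling, filterByExpr by group (14611 genes kept), 1 coefficient per group and all 8 libraries (4 residual degrees of freedom). The Benjamini-Hochberg adjustment ran over all genes tested, at a threshold of 0.05, after a test on simulated data. Each SE, in the figures the SE of the fit, was back-calculated as the absolute log2 fold change over the square root of the F statistic. DESeq2 1.42.0, DESeq2 size factors, no filter, the 4 libraries compared, replicate blocks, removal of each library's trend with GC content and length (lowess, span 0.3) and leaving out each library were the alternatives. Intervals are exact 95% binomial and, like the floor of 3 counts, cover counting error only. Exon lengths, positions and GC content came from GENCODE 29 (GRCh38), which may not be the annotation used for counting, and promoters from RefSeq. Of the 10 members, 8 had a promoter entry.

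The members, lists and comparisons were chosen with earlier results of these data known. The text names all members and, from the pathway list, for each comparison, the called genes with the 3 largest rises and falls whose mean reached 1 CPM, and KLF9, HR, PAX8, TG, TSHR, KRT8 and KRT18 as checks. GRB10 at 6 h and at 24 h, SOCS3 at 24 h against 6 h in the T3 libraries, HTRA1, PAPPA, IGFBP2 and IGFBP5 were named in addition, after their values were seen.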

Additional observations from a re-analysis of the deposited data

Results flagged for a closer look

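Between the times, 2 pathway genes and 2 established T3 targets differed in their response to T3 as labelled, by the test of the difference itself. The log2 fold change at 24 h less that at 6 h was 1.03 for STC2 (edgeR adjusted p = 0.00629) and 1.15 for GRB10 (edgeR adjusted p = 0.0167). It was -7.03 for KLF9 (SE 0.57, edgeR adjusted p = 4.02e-06) and -4.96 for HR (SE 0.54, edgeR adjusted p = 0.000127). KLF9 stood at 2.78 and 3.34 CPM in the libraries labelled T3 at 24 h and 20.7 and 31.3 CPM in those labelled vehicle at 24 h, against 13.3 and 14.0 CPM with T3 and 0.901 and 0.815 CPM with vehicle at 6 h, the last of these on 3 and 2 counts. None of the 9 members tested differed in this way in edgeR (3 at an unadjusted p under 0.05, 0 in DESeq2).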

How the results depend on the processing

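Genes called between T3 and vehicle at 6 h numbered 1117, and 3101 with only the 4 libraries compared, 454 with GC content and length removed and 130 to 1631 when 1 library was left out. Members called there numbered 1, and 3 with only the 4 libraries compared, 0 with no filter, 0 with GC content and length removed and 0 to 1 over the leave-outs. At 24 h the count was 1950, and 1246 in DESeq2, 800 with only the 4 libraries compared, 171 with GC content and length removed and 1133 to 2032 over the leave-outs, with 1 member rather than 2 in those 3 settings and 1 to 2 over the leave-outs. With GC content and length removed that member was IRS2, higher, and neither IGFBP4 nor IGFBP6 passed. The fit with GC content and length removed covered 12577 genes, against 14611 in the main fit. The fit without a filter covered every gene with any count, so the numbers of genes called rest on different gene sets. For the difference of response the count was 269, and 674 without a filter and 45 to 655 over the leave-outs. Members called there numbered 0, and 2 without a filter, 1 with either replicate block, 1 with GC content and length removed and 0 to 1 over the leave-outs. Replicate numbers were not shown to pair the libraries (correlation of deviations -0.01 at 6 h and -0.06 at 24 h), so the block is an alternative only, and the blocks changed no other call on the members.

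The sign turned for some members without a call: IRS1 at 6 h (-0.01 with a replicate block within time, -0.26 to 0.35 over the leave-outs), IGFBP4 at 6 h (-0.13 to 0.86 over the leave-outs), IGFBP7 at 6 h (-0.11 to 0.26) and at 24 h (-0.13 to 0.62), IGF1R at 24 h (0.02 with GC content and length removed), and the difference of response of IGFBP3 (-0.39 to 0.23) and IGFBP7 (-0.18 to 0.58). With GC content and length removed IGFBP6 at 24 h against 6 h in the T3 libraries was 1.30 and the called IGF2R value in the vehicle libraries -0.02. In the time contrasts, members called numbered 8 rather than 6 in the T3 libraries and 7 rather than 8 in the vehicle libraries with GC content and length removed. The vehicle number was also 7 with only the 4 libraries compared. The cause was not tested. Depth limits IGF2, with 0 counts, and IGFBP6, with 6 to 37 counts per library.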
